A study of Drosophila melanogaster with 18 samples.

Results

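The pairs described here are alternative poly(A) sites of 1 gene that lie more than 600 nt apart. They were chosen by distance alone: a gene entry had to have exactly 2 counted sites, the position of a site was its 3′ end along the strand, and the 2 positions had to differ by more than 600 nt. Of 529 gene entries in the count tables, 505 had 2 sites and 170 of these met the rule. The other 335 pairs, 143 at most 250 nt apart and 192 between that and 600 nt apart, and 24 entries with 3 sites make up the rest of the tables. A background percent below is the share over all genes or sites tested, these pairs included. All of these sites come from the authors' own list, so a background is not a value for every gene of the testis. The counts are 3′-end reads (QuantSeq forward libraries) from whole testes of Drosophila melanogaster, in 9 groups of 2 libraries. Control testes had the genotype bamGal4 alone, and the others bamGal4>cbc-KD(BL 77426), bamGal4>PCF11-KD, bamGal4>PCF11-NIG-KD, bamGal4>su(f)-KD, bamGal4>CstF50-KD, bamGal4>CstF64-KD, bamGal4>CPSF6-KD or bamGal4>PABP2-KD. These groups are called control, cbc_KD, PCF11_KD, PCF11_NIG_KD, suf_KD, CstF50_KD, CstF64_KD, CPSF6_KD and PABP2_KD below. The driver bamGal4, which all groups carried, is active in late spermatogonia, from which spermatocytes arise, while the libraries hold the RNA of all cells of the organ. Each library was made from about 150 pairs of testes, taken from crosses kept for 3 days at 25 °C whose progeny were then moved to 29 °C. No counted entry belonged to a targeted gene (0 in each of the knockdown groups), so the remaining level of the factor was not measured.

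A gene with more than 1 poly(A) site can make mRNAs that share a coding sequence and differ in the length of the 3′ UTR, the region that microRNAs and RNA-binding proteins read. The first site reached by the polymerase is the proximal site, and cleavage there leaves the short 3′ UTR, so the distance between the sites is the length of sequence gained or lost by a switch. CstF50, CstF64 and su(f) make up the cleavage stimulation factor, which binds the sequence downstream of the cut, PCF11 and cbc (the fly Clp1) form cleavage factor II, CPSF6 is a subunit of cleavage factor I, and PABP2 binds the growing poly(A) tail in the nucleus. In mammalian cells, loss of CPSF6 or of the PABP2 homolog is known to favour proximal sites in many genes.

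The distance ran from 606 to 4067 nt, with a median of 931 nt and a lower quartile of 744 nt. All 170 proximal sites lay in an annotated 3′ UTR of their gene, against 94.9% of the other pairs. Of the distal sites, 106 were in a 3′ UTR of the annotation, and others downstream of the annotated gene end (60) or in an intron (4). The 60 downstream sites were a median of 5 nt past the gene end, and at most 493 nt. Distal sites in an annotated 3′ UTR made up 62.4% of these pairs and 50.4% of the closer ones. An annotated intron lay between the sites in 3 pairs (Lztr1, Trc8 and acj6), so that there the distance on the genome is not only 3′ UTR. Another gene or element lay wholly between the sites in 4 pairs (CG1024, Suv3, Usp10 and clu). Reads were counted without regard to strand, and 26 pairs (15.3%, against 26% of the closer pairs) had a gene of the opposite strand at a site and 16 one of the same strand. No other gene was annotated at either site in 130 pairs. The pairs lay on arms 2L (28), 2R (28), 3L (38), 3R (43), X (31) and 4 (2), with 67 on the plus and 103 on the minus strand. Cbl was listed as 2 entries, Cbl-PA and Cbl-PB, which are both members, so the 170 pairs stand for 169 genes. Both entries of Cbl come from 1 locus and are not independent.

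Library totals ran from 342763 to 819286 counts, of which 22.4% to 28.3% fell on these pairs. A pair had a median of 360 counts per library over both sites, against 295 in the closer pairs. The test took pairs that averaged 10 or more counts a library, which left out 1 member (hec, 8.11 counts). The 2 libraries of each group differed by more than sampling noise, with a chi-square per degree of freedom from 3.18 in CstF64_KD to 60.6 in PABP2_KD, so none was taken as a repeat of another. The labels do not say whether duplicates came from separate crosses, and p values then measure only the spread between these libraries, which may be technical. All 8 comparisons share the same 2 control libraries. In the column headers of the counts, control and PABP2_KD libraries carry the same sample numbers. So do those of CPSF6_KD and PCF11_KD, of CstF50_KD and suf_KD, and of CstF64_KD and PCF11_NIG_KD. What these numbers mark is not stated, nor which libraries were sequenced together with the controls. Where sequencing run and knockdown coincide, their effects cannot be told apart.

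The proximal share of a pair is the count at the proximal site as a percent of the sum of both. In control testes the proximal site was the major one in most pairs. The median share over the 169 pairs was 82.8% in control replicate 1 and 86.2% in control replicate 2. In the control mean, 58 pairs had at least 90% of counts at the proximal site, 37 had less than 50% and 4 less than 10%. A high share leaves little room for a rise, and a low one little room for a fall.

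Across the groups the median share of these pairs was lowest in cbc_KD, at 57.9% ± 1.18 (SD, n = 2), against 84.5% ± 2.40 in control. It was 92.5% ± 0.016 in CstF50_KD, 90.2% ± 0.497 in CstF64_KD and 89.4% ± 1.08 in CPSF6_KD, and it was 86.7% ± 0.435 in suf_KD. In these 4 groups both libraries lay above both controls. The median was, in PABP2_KD 87.7% ± 3.08, in PCF11_NIG_KD 83.7% ± 1.04 and in PCF11_KD 81.0% ± 3.42, and each of these 3 groups had at least 1 library within the range of the controls. The number of pairs with at least 90% at the proximal site was 20 in cbc_KD and 96 in CstF50_KD.

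**Figure D1:**
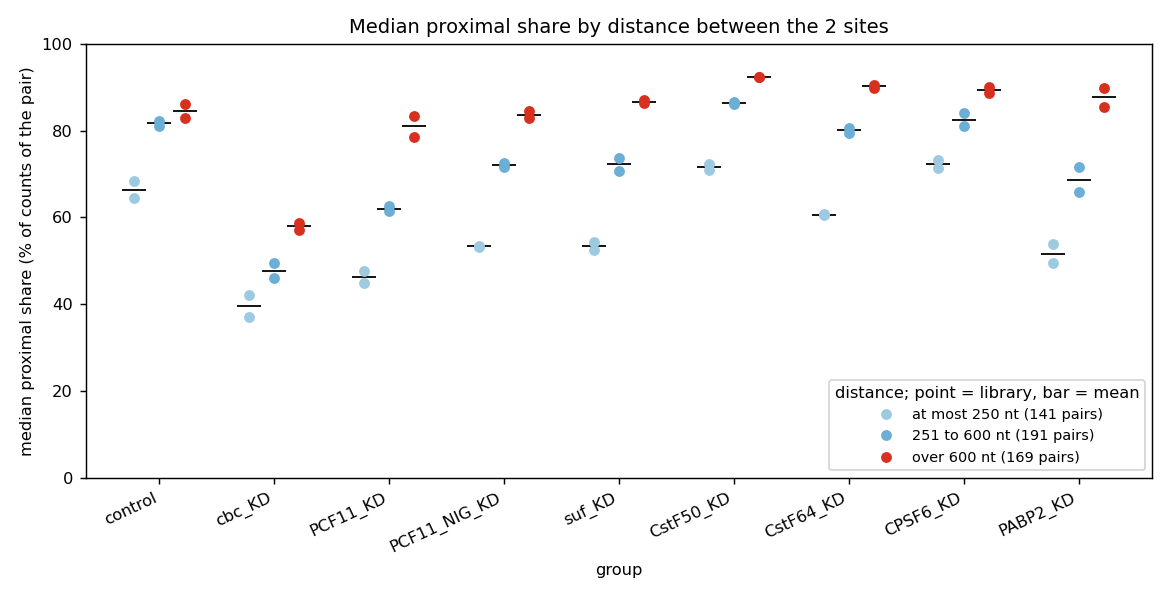
Median proximal share (percent of the counts of the pair, y axis) in each library (points) of the 9 groups (x axis), for pairs at most 250 nt, between 250 and 600 nt and over 600 nt apart, with bars for the mean of the 2 libraries. The over-600-nt points lie below the controls in cbc_KD, at a mean of 57.9% against 84.5%, and reach 92.5% in CstF50_KD.

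The same knockdowns were read in the closer pairs. The median over pairs of the change in proximal share (mean of the knockdown libraries minus mean of the controls) was −12.7 percentage points in cbc_KD for the pairs over 600 nt apart, −16.2 over all genes tested and −20.2 for pairs at most 250 nt apart. In PCF11_KD it was −0.0573 points over 600 nt, −6.24 over all genes and −15.3 at most 250 nt. In PCF11_NIG_KD the 3 medians were −0.376, −3.86 and −11.8 points. For suf_KD they were 2.80, −1.69 and −9.25 points, and for PABP2_KD 3.58, −2.62 and −13.1 points. In CstF64_KD they were 4.75, 1.07 and −4.66 points, in CstF50_KD 6.31, 3.73 and 0.572 points, and in CPSF6_KD 4.26, 2.08 and 0.803 points. These comparisons share their controls. No test was made of a value over pairs, and the control shares of the classes differ as well, so this is a description. The medians near 0 had no firm sign: without control replicate 2, PCF11_KD was at 1.70 and PCF11_NIG_KD at 0.867 points. Without control replicate 1, the median in suf_KD was 0.833 points, in CPSF6_KD 2.42 points, in CstF64_KD 3.12 points and in PABP2_KD 1.80 points.

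Site usage was tested per pair with edgeR's quasi-likelihood test on the counts of both sites in all 18 libraries. The spread was estimated over all groups together, so an SE or p value does not measure the spread within 1 knockdown group. Results are log2 odds (proximal over distal, knockdown over control) with their SE, and the Benjamini-Hochberg adjustment ran over all 525 genes tested. Negative log2 odds are a move toward the distal site. Over all 9 groups together, 156 of the 169 pairs (92.3%) differed in usage, against a background of 89.1% of all genes tested. Of the 169 pairs, 96 moved toward the distal site in at least 1 comparison (background 66.3%) and 115 toward the proximal site in at least 1 (background 47.2%). Both directions, in different comparisons, were seen in 54 (background 22.9%), and 12 passed in no comparison (background 9.33%).

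**Figure D2:**
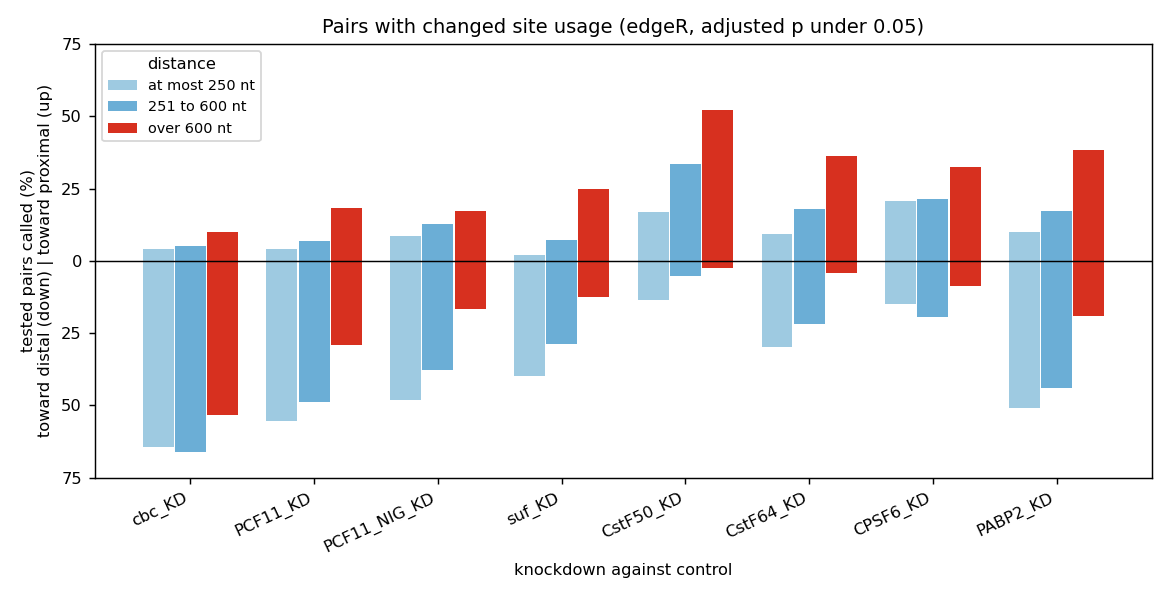
Percent of tested pairs that passed the test (adjusted p under 0.05) toward the proximal site (bars upward from 0) and toward the distal site (bars downward from 0) in each knockdown against control (x axis), for 3 classes of distance. In PABP2_KD, 38.5% of the pairs over 600 nt apart moved toward the proximal site and 18.9% toward the distal one, against 9.93% and 51.1% of pairs at most 250 nt apart.

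cbc_KD was the comparison in which most pairs moved toward the distal site. It asked which sites are used in testes with a knockdown directed at this subunit of cleavage factor II, whose remaining level was not measured. Usage moved toward the distal site in 90 of 169 pairs (53.3%, background 60.6%) and toward the proximal site in 17 (10.1%, background 6.67%). Both sites changed in opposite directions in 41 of the 90, the proximal site alone fell in 28 and the distal site alone rose in 19. Here and in the comparisons below, this split by site was counted only for the pairs described here, so no background is given for it. Whether the split differs from that of the other genes called was not tested. In HtrA2, a mitochondrial serine protease gene with sites at 14509894 and 14509054 on 3R, the proximal share was 95.5% and 94.9% in the control libraries and 19.4% and 19.1% after knockdown (log2 odds −6.37 ± 0.28, adjusted p = 2.6e-10). Its raw counts went from 905 and 817 to 135 and 118 at the proximal site and from 43 and 44 to 562 and 501 at the distal site. The long form of HtrA2 thus went from a minor to the major form in both libraries. For Trc8, which codes for a ubiquitin ligase of the endoplasmic reticulum membrane and has FipoQ on the opposite strand at a site, the share was 75.3% and 79.1% in controls and 5.75% and 5.35% in cbc_KD (log2 odds −5.85 ± 0.26, adjusted p = 2.75e-10). The palmitoyltransferase gene app had 84.4% and 86.0% in controls and 15.7% and 9.07% after knockdown (log2 odds −5.39 ± 0.50, adjusted p = 4.54e-07). Pairs named for the largest change in a comparison were taken only from those whose groups did not overlap, here and in the other knockdowns, so that separation is set by the choice. Hr3, a nuclear receptor gene with CG12912 and CG46321 on the same strand at a site, had 0 of 26 control counts at its distal site, which allows a share of up to 11.5%. In cbc_KD its distal site had 30 and 65 counts and its proximal site 1 and 11 (adjusted p = 9.94e-05).

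The largest moves toward the proximal site in cbc_KD were in pairs whose control share was low or intermediate. CG10089 had a share of 45.5% and 48.1% in controls and of 92.5% and 95.8% in cbc_KD (log2 odds 4.20 ± 0.58, adjusted p = 2.01e-05). In rut, the gene of the calcium-dependent adenylyl cyclase, the share was 27.4% and 55.8% in controls and 85.8% and 88.4% after knockdown (log2 odds 3.34 ± 0.48, adjusted p = 2.81e-05). The controls of rut were far apart. Lrch, a leucine-rich repeat protein gene with few counts, had 1 and 11 proximal counts against 34 and 26 distal ones in controls, and 33 and 34 against 21 and 14 in cbc_KD (adjusted p = 0.00147). The distal site of Lrch lies in an annotated intron, not in an annotated 3′ UTR. For mahe, an RNA helicase gene with sites 3561 nt apart, the share was 51.5% and 45.1% in controls and 75.4% and 77.7% in cbc_KD (log2 odds 1.81 ± 0.63, adjusted p = 0.0217). Without control replicate 2 the adjusted p of mahe in this comparison was 0.104, and it was 0.0511 and 0.0712 without either cbc_KD library.

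At the level of single sites, counts at the proximal site were lower in cbc_KD in 85 of 170 pairs (50.0%, background 51.6%), and counts at the distal site were higher in 73 of 158 (46.2%, background 55.6%). Proximal sites were higher in 30 pairs (17.6%, background 15.9%) and distal sites lower in 21 (13.3%, background 11.3%, and 7.59% without control replicate 1 or with scaling by library total alone). These site levels are scaled with TMM factors, which ran from 0.760 to 1.36 over the libraries and came only from sites on the authors' list. Scaling by library total alone shifted the median of all sites by 0.42 in cbc_KD, −0.33 in CstF50_KD, −0.22 in CPSF6_KD and 0.14 in suf_KD (log2), and DESeq2 size factors shifted it by −0.13 in cbc_KD and −0.10 in PCF11_KD. Single-site changes below are relative to these shifts, while usage within a pair does not depend on them.

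**Figure D3:**
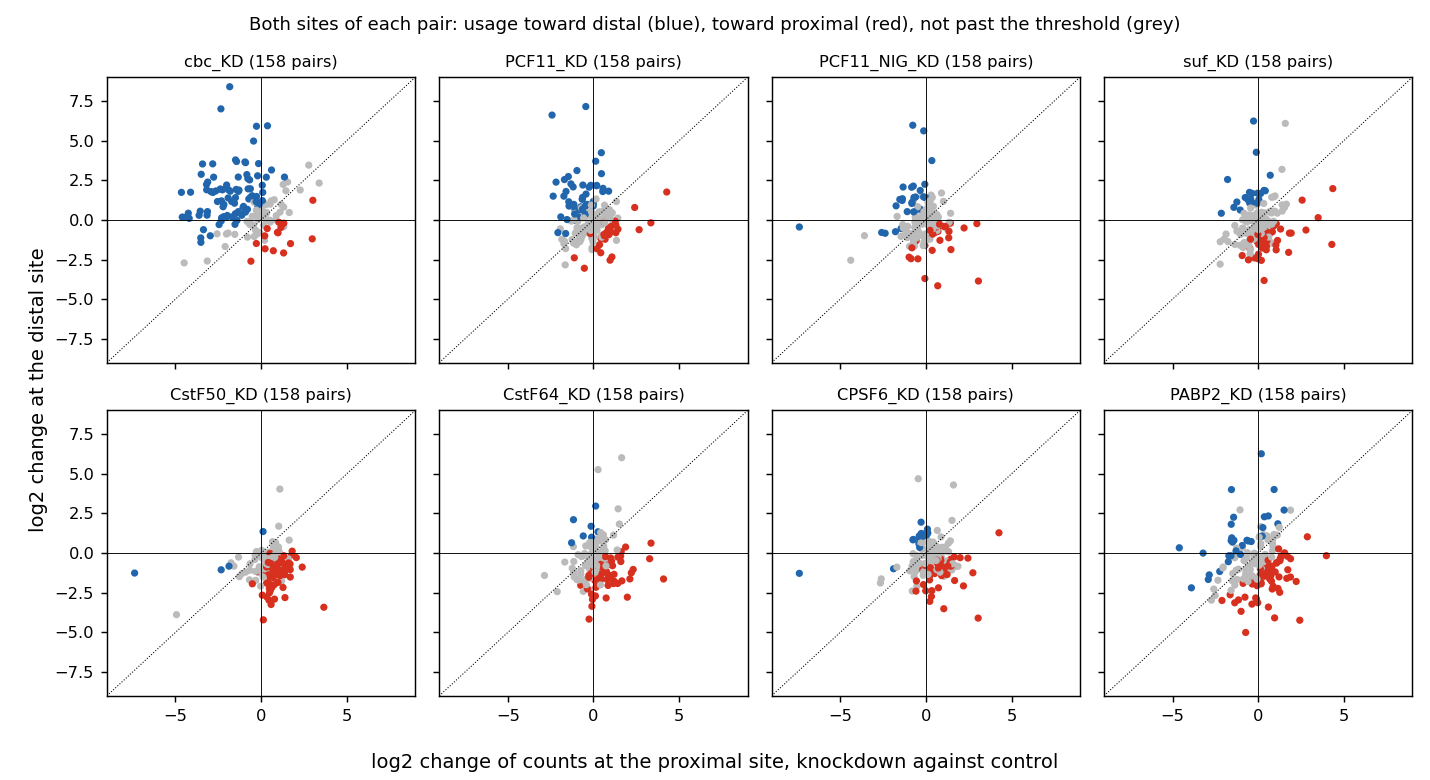
Log2 change of counts at the proximal site (x axis) and at the distal site (y axis) of each pair with both sites tested, knockdown against control, in 8 panels. Blue pairs moved toward the distal site, red pairs toward the proximal site and grey pairs did not pass the usage test; the dotted line marks an equal change of both sites. In cbc_KD most coloured pairs are blue and lie above the line (90 pairs toward distal, 17 toward proximal), and in CstF50_KD most are red and lie below it (4 and 88).

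In PCF11_KD, the knockdown of the other subunit of cleavage factor II, pairs moved in both directions. Usage moved toward the distal site in 49 of 169 (29.0%, background 43.8%) and toward the proximal site in 31 (18.3%, background 9.52%). Of the 49, both sites changed in 16, the proximal site alone fell in 13 and the distal site alone rose in 19. Proximal sites were lower in 53 pairs (31.2%, background 32.1%) and higher in 31 (18.2%, background 15%), and distal sites were higher in 39 (24.7%, background 42%) and lower in 38 (24.1%, background 13.7%). Trc8 had a proximal share of 18% and 20.3% in PCF11_KD, against 75.3% and 79.1% in controls (log2 odds −3.84 ± 0.25, adjusted p = 2.26e-08). acj6, a POU-domain transcription factor gene with sites at 15352663 and 15351173 on X, fell from 73.3% and 81.5% to 25.6% and 29.5% (log2 odds −3.19 ± 0.28, adjusted p = 6.76e-07). JIL-1, which codes for a histone H3 kinase, fell from 42.5% and 61.8% to 4.98% and 3.40% (log2 odds −4.62 ± 0.94, adjusted p = 0.00115). In JIL-1 and acj6 the controls differed more from each other than the knockdown libraries did. Hr3 again had distal counts, 12 and 12, beside 5 and 2 at the proximal site (adjusted p = 0.00134). Toward the proximal site, Patr-1, a gene of the mRNA decapping machinery with sites at 17047566 and 17048434 on 3R, rose from 14.3% and 23.8% to 70.6% and 67.3% (log2 odds 3.27 ± 0.74, adjusted p = 0.00231). Cbl-PB, an entry of the ubiquitin ligase gene Cbl, rose from 41.2% and 15.4% to 72.9% and 69.6% (log2 odds 2.54 ± 0.51, adjusted p = 0.000932). Its control shares rest on 7 and 2 proximal beside 10 and 11 distal counts, and counts rose at both of its sites (log2 change 4.27 proximal, 1.76 distal). CG10089 was at 89.7% and 92.4% (log2 odds 3.53 ± 0.56, adjusted p = 0.00014), and Lrch had 16 and 19 proximal beside 10 and 5 distal counts (adjusted p = 0.00251). Without control replicate 2 the share of pairs called toward the distal site was 18.9%, and without control replicate 1 the share toward the proximal site was 11.8%.

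PCF11_NIG_KD, the group of the other RNAi line against PCF11, had calls toward the distal site in 28 of 169 pairs (16.6%, background 33.9%) beside 29 toward the proximal site (17.2%, background 12.4%). The difference between the PCF11 groups was not tested, and their values share the controls. Proximal sites were lower in 40 pairs (23.5%, background 26.9%) and higher in 25 (14.7%, background 15.2%), and distal sites lower in 41 (25.9%, background 15.8%) and higher in 28 (17.7%, background 37.4%). Trc8 was at 34.8% and 30.7%, between the values of controls and PCF11_KD (log2 odds −2.80 ± 0.24, adjusted p = 9.52e-07). JIL-1 was at 8.75% and 9.05% (log2 odds −3.45 ± 0.89, adjusted p = 0.0065). Lztr1, an adaptor of a Cullin 3 ubiquitin ligase with the gene CG43867 on the same strand at a site, fell from 67.7% and 84.4% to 38% and 28.6% (log2 odds −2.63 ± 0.64, adjusted p = 0.00418). The controls of JIL-1 and Lztr1 were far apart. Without control replicate 2, JIL-1 had an adjusted p of 0.0612 and Lztr1 of 0.0568. RasGAP1, a GTPase-activating protein gene of Ras, had no proximal count among 67, which allows a share of up to 4.48%, against 13 and 15 proximal beside 26 and 18 distal counts in controls (adjusted p = 0.000459). Toward the proximal site, mahe rose to 98.1% and 94.1% (log2 odds 4.87 ± 0.71, adjusted p = 8.33e-05), and its distal counts went from 175 and 179 to 13 and 28. CG10089 reached 98.7% and 99.7% (log2 odds 6.99 ± 0.67, adjusted p = 2.26e-06). For rut the share was 89.7% and 88.2% (log2 odds 3.59 ± 0.53, adjusted p = 9.11e-05), and for Patr-1 64.5% and 71.4% (log2 odds 3.20 ± 0.72, adjusted p = 0.00261). In rut the distal site fell (log2 change −3.70, adjusted p = 1.23e-05), and the proximal site did not pass (−0.06, adjusted p = 0.895). Without control replicate 2, 8.28% of the pairs were called toward the distal site. Proximal sites higher were 8.24% without either control and 9.41% without PCF11_NIG_KD replicate 2, and distal sites higher 9.49% without control replicate 2.

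In suf_KD, which targets a subunit of the cleavage stimulation factor, pairs also moved in both directions, more of them toward the proximal site. Usage moved toward the proximal site in 42 of 169 pairs (24.9%, background 11.6%) and toward the distal site in 21 (12.4%, background 26.1%). Of the 42, the distal site alone fell in 25, the proximal site alone rose in 10 and both changed in 5. Distal sites were lower in 53 pairs (33.5%, background 18%) and higher in 29 (18.4%, background 33.1%), and proximal sites higher in 36 (21.2%, background 19.9%) and lower in 34 (20%, background 24.9%). aPKC, the atypical protein kinase C of cell polarity, rose from 17.4% and 20.8% to 81.7% and 73.5% (log2 odds 3.84 ± 0.62, adjusted p = 0.000238). At a site of aPKC the gene CG10257 lies on the opposite strand. In Patr-1 the share rose to 73.5% and 68.7% (log2 odds 3.42 ± 0.74, adjusted p = 0.00225). wts, the Hippo pathway kinase gene, rose from 22.4% and 17.1% to 55.8% and 71.4% (log2 odds 2.74 ± 0.51, adjusted p = 0.000801). CG10089 was at 97.8% and 98.4%, with proximal counts of 826 and 747 against 25 and 25 in controls (log2 odds 5.85 ± 0.59, adjusted p = 3.09e-06). In these 4 pairs the distal site was the major one in control replicates 1 and 2 and the proximal site in suf_KD. Among moves toward the distal site, CG10947 fell from 97.6% and 98.3% to 70.9% and 69.8% (log2 odds −4.34 ± 0.23, adjusted p = 7.13e-09). acj6 fell to 41.5% and 40.5% (log2 odds −2.32 ± 0.28, adjusted p = 1.91e-05), and Trc8 to 46.9% and 44.4% (log2 odds −2.01 ± 0.24, adjusted p = 1.61e-05). In Trc8 only the distal site changed here (log2 change 1.67, adjusted p = 5.03e-07), and the proximal site did not pass (−0.35, adjusted p = 0.162). fray, a kinase gene of ion transport with CG7694 on the same strand at a site, was at 32.4% and 34.7% against 58.0% and 60.5% (log2 odds −1.52 ± 0.51, adjusted p = 0.0316). Its call was lost without any 1 of the 4 libraries, with adjusted p from 0.0874 to 0.123. Without control replicate 1, 13.6% of pairs were called toward the proximal site, and 16% and 13.6% without suf_KD replicates 1 and 2. Toward the distal site the share was 7.10% without control replicate 2 and 7.69% without suf_KD replicate 1. Distal sites lower were 20.3% without control replicate 1 and 22.2% without suf_KD replicate 2, distal sites higher 12% without control replicate 1 and proximal sites lower 12.9% without control replicate 2.

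CstF50_KD had the most pairs called toward the proximal site: 88 of 169 (52.1%, background 33.9%), beside 4 toward the distal site (2.37%, background 6.86%). Of the 88, both sites changed in 29, the proximal site alone rose in 30 and the distal site alone fell in 26. Counts at the proximal site were higher in 81 of 170 pairs (47.6%, background 40%) and counts at the distal site lower in 71 of 158 (44.9%, background 28.1%), while the distal site was higher in 3 pairs (1.90%, background 15.6%) and the proximal site lower in 12 (7.06%, background 6.64%). NetB, a netrin gene with sites 3913 nt apart, had a share of 21.1% and 25.0% in controls and of 60.5% and 82.6% after knockdown (log2 odds 2.94 ± 0.58, adjusted p = 0.00169). rut was at 85.5% and 90.9% (log2 odds 3.39 ± 0.55, adjusted p = 0.000535), and Cbl-PB, with 30 and 25 proximal beside 5 and 8 distal counts, at 85.7% and 75.8% (log2 odds 3.29 ± 0.58, adjusted p = 0.000884). CG10089 had 370 and 359 proximal counts beside 6 and 0 distal ones (adjusted p = 2.83e-05). In NetB the knockdown libraries were farther apart than in the other 3 pairs. All 4 pairs that moved toward the distal site are named by the rule. In RasGAP1, all 21 counts were distal, which allows a proximal share of up to 14.3% (adjusted p = 0.00747, and 0.0567 without CstF50_KD replicate 1). Trc8 was at 62.1% and 55.5% (log2 odds −1.24 ± 0.24, adjusted p = 0.00154). chrb, a TOR pathway inhibitor gene, was at 33.7% and 43.2% against 52.9% and 59.8%, and both of its sites fell (log2 change −1.87 proximal, −0.82 distal). rdx, an adaptor gene of a Cullin 3 ubiquitin ligase, was at 71.9% and 81.4% against 89.1% and 88.2%. The calls of chrb (adjusted p = 0.00747) and rdx (adjusted p = 0.0298) were lost without CstF50_KD replicate 1, at 0.0867 and 0.239, and without control replicate 2, at 0.0565 and 0.0729. That of rdx was also lost without control replicate 1, at 0.122. Without control replicate 1, 30.2% of pairs were called toward the proximal site, proximal sites higher were 25.9% and distal sites lower 20.3%. Toward the distal site, 1.18% of pairs were called without control replicate 2 and 0.592% without CstF50_KD replicate 1. Without CstF50_KD replicate 1, 21.2% of proximal sites were higher, and without CstF50_KD replicate 2, 25.3% of distal sites were lower. Distal sites higher were 0.633% without control replicate 1. Scaled by library total alone, 24.7% of proximal sites were higher and 0.633% of distal sites.

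In CstF64_KD the calls were also mostly toward the proximal site, in 61 of 169 pairs (36.1%, background 21%), with 7 toward the distal site (4.14%, background 17.7%). Of pairs at most 250 nt apart, 29.8% were called toward the distal site in this comparison, and of the pairs next in distance, up to 600 nt, 22%. Of the 61, the distal site alone fell in 30, the proximal site alone rose in 17 and both changed in 12. Distal sites were lower in 62 pairs (39.2%, background 24.2%) and higher in 13 (8.23%, background 26.1%), and proximal sites higher in 47 (27.6%, background 24.7%) and lower in 20 (11.8%, background 15.4%). wts rose to 77.5% and 68.5% from 22.4% and 17.1% (log2 odds 3.40 ± 0.52, adjusted p = 0.00019). Patr-1 rose to 69.9% and 73.7% (log2 odds 3.45 ± 0.77, adjusted p = 0.00347), and CG10089 to 98.2% and 97.5% (log2 odds 5.72 ± 0.60, adjusted p = 7.59e-06). CG31998 had 10 and 11 proximal beside 1 and 2 distal counts, against 5 and 5 beside 11 and 7 in controls. At this depth the call of CG31998 (adjusted p = 0.0295) was lost without any 1 of the 4 libraries, with adjusted p from 0.0546 to 0.134. Of the 7 pairs toward the distal site, CG10947 fell to 83.2% in both libraries (log2 odds −3.28 ± 0.23, adjusted p = 1.22e-07). Trc8 was at 50.0% and 48.1% (log2 odds −1.82 ± 0.24, adjusted p = 5.62e-05), and acj6 at 56.5% and 48.8% (log2 odds −1.64 ± 0.28, adjusted p = 0.000474). chinmo, a transcription factor gene of the early germ line and the somatic stem cells, fell from 81.6% and 80.4% to 68.9% and 64.6% (log2 odds −1.08 ± 0.20, adjusted p = 0.000753). In chinmo only the distal site changed, with a log2 change of 1.34 (adjusted p = 0.000144). Calls toward the proximal site were 19.5% without control replicate 1, and 18.9% without CstF64_KD replicate 1. Without those libraries in turn, distal sites lower were 24.1% and 23.4%. Proximal sites higher were 18.2% without control replicate 1, and proximal sites lower 7.65% without control replicate 2 and 7.06% without CstF64_KD replicate 1.

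CPSF6_KD, the knockdown of the cleavage factor I subunit, had 55 of 169 pairs called toward the proximal site (32.5%, background 24.2%) and 15 toward the distal site (8.88%, background 14.7%). The distal site alone fell in 20 of the 55, the proximal site alone rose in 16 and both changed in 11. Proximal sites were higher in 55 pairs (32.4%, background 30.4%) and lower in 11 (6.47%, background 8.73%), and distal sites lower in 43 (27.2%, background 22.8%) and higher in 14 (8.86%, background 19.2%). l(3)neo38, a zinc finger gene with sites 2215 nt apart on 3R at 11768611 and 11766396, had a share of 3.51% and 8.81% in controls and of 57.1% and 52.5% after knockdown (log2 odds 4.27 ± 0.73, adjusted p = 0.00054). Its distal counts went from 220 and 145 to 27 and 56. CG6983 rose from 38.2% and 33.9% to 86.8% and 84.1% (log2 odds 3.37 ± 0.48, adjusted p = 0.000156). In both pairs the distal site was the major one in controls and the proximal site after knockdown. Cbl-PB was at 79.2% and 75.6% (log2 odds 2.99 ± 0.52, adjusted p = 0.000566), and CG10089 at 99.0% and 99.5% (log2 odds 7.10 ± 0.77, adjusted p = 1.57e-05). Of the 15 calls toward the distal site, CG10947 had the lowest adjusted p (1.54e-05), and the 4 with the largest change had an adjusted p between 0.0105 and 0.0415. In neur, the gene of a ubiquitin ligase of Notch signalling, the share was 60.5% and 66.7% in controls and 43.6% and 31.9% after knockdown (adjusted p = 0.0221). ari-2, another ubiquitin ligase gene, fell from 53.3% and 61.5% to 31.9% and 42.4% (adjusted p = 0.0325). tgo, a bHLH-PAS factor gene, fell from 65.6% and 80.2% to 59.6% and 48.3% (adjusted p = 0.0415). On the opposite strand at a site of tgo lies CG11986. RasGAP1 had no proximal count among 17 (adjusted p = 0.0105), and each of these 4 calls was lost without at least 1 library. Without control replicate 2, the adjusted p was 0.0908 for neur, 0.158 for ari-2 and 0.292 for tgo, and without CPSF6_KD replicate 2 it was 0.0530 for RasGAP1. Without control replicate 1, 17.8% of pairs were called toward the proximal site, and 18.3% without CPSF6_KD replicate 2. Toward the distal site the share was 3.55% without control replicate 2, and 5.33% and 2.96% without CPSF6_KD replicates 1 and 2. Without control replicate 1, proximal sites higher were 20%, proximal sites lower 4.12% and distal sites lower 13.9%, and the last was 15.2% without CPSF6_KD replicate 2. Distal sites higher were 5.70% without control replicate 2 and 5.06% without CPSF6_KD replicate 2, and proximal sites lower were 13.5% with scaling by library total alone.

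PABP2_KD moved many pairs in each direction, with 65 of 169 toward the proximal site (38.5%, background 21.7%) and 32 toward the distal site (18.9%, background 37.3%). Of the 65, the distal site alone fell in 27, both changed in 20 and the proximal site alone rose in 14. Distal sites were lower in 73 pairs (46.2%, background 26.1%) and higher in 27 (17.1%, background 39.2%), and proximal sites lower in 55 (32.4%, background 32.8%) and higher in 51 (30%, background 25.8%). dock, an SH2 and SH3 adaptor gene with sites at 832074 and 833241 on 2L, fell from 86.3% and 93.5% to 12.7% and 21.9% (log2 odds −5.51 ± 0.44, adjusted p = 2.92e-07). Its distal counts were 46 and 22 in controls and 1827 and 585 after knockdown. In orb2, a CPEB-family translational regulator with CG43783 on the same strand at a site, the share fell from 98.0% and 97.1% to 56.8% and 57.9% (log2 odds −4.93 ± 0.44, adjusted p = 8.06e-07). In dock the distal site rose, whereas in orb2 the proximal site fell (log2 change −4.60, adjusted p = 4.78e-08) and the distal site did not pass (0.34, adjusted p = 0.257). PDZ-GEF, an exchange factor gene of Rap1, fell from 85.5% and 91.5% to 31.0% and 51.9% (log2 odds −3.44 ± 0.63, adjusted p = 0.00041). Trc8 was at 36.9% and 47.9% (log2 odds −2.21 ± 0.24, adjusted p = 4.72e-06). Toward the proximal site, Cbl-PB rose to 87.8% and 89.9% (log2 odds 4.19 ± 0.52, adjusted p = 1.7e-05) and CG10089 to 98.8% and 99.1% (log2 odds 6.67 ± 0.70, adjusted p = 3.13e-06). The 2 libraries of this group were often far apart. Patr-1 was at 63.8% and 94.6% (log2 odds 4.07 ± 0.77, adjusted p = 0.000511), and l(3)neo38 at 33.2% and 77.8% (log2 odds 4.04 ± 0.73, adjusted p = 0.000384). These SE and p values use the spread over all groups and do not reflect the distance between the PABP2_KD libraries. For l(3)neo38 the SE was 0.73 in both PABP2_KD and CPSF6_KD, while the SD of the share was 31.5 and 3.25 points. Calls toward the proximal site were 24.9% without control replicate 1. In a fit of the 4 libraries of this comparison alone, 18.3% were called toward the proximal site and 7.10% toward the distal site.

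**Figure D4:**
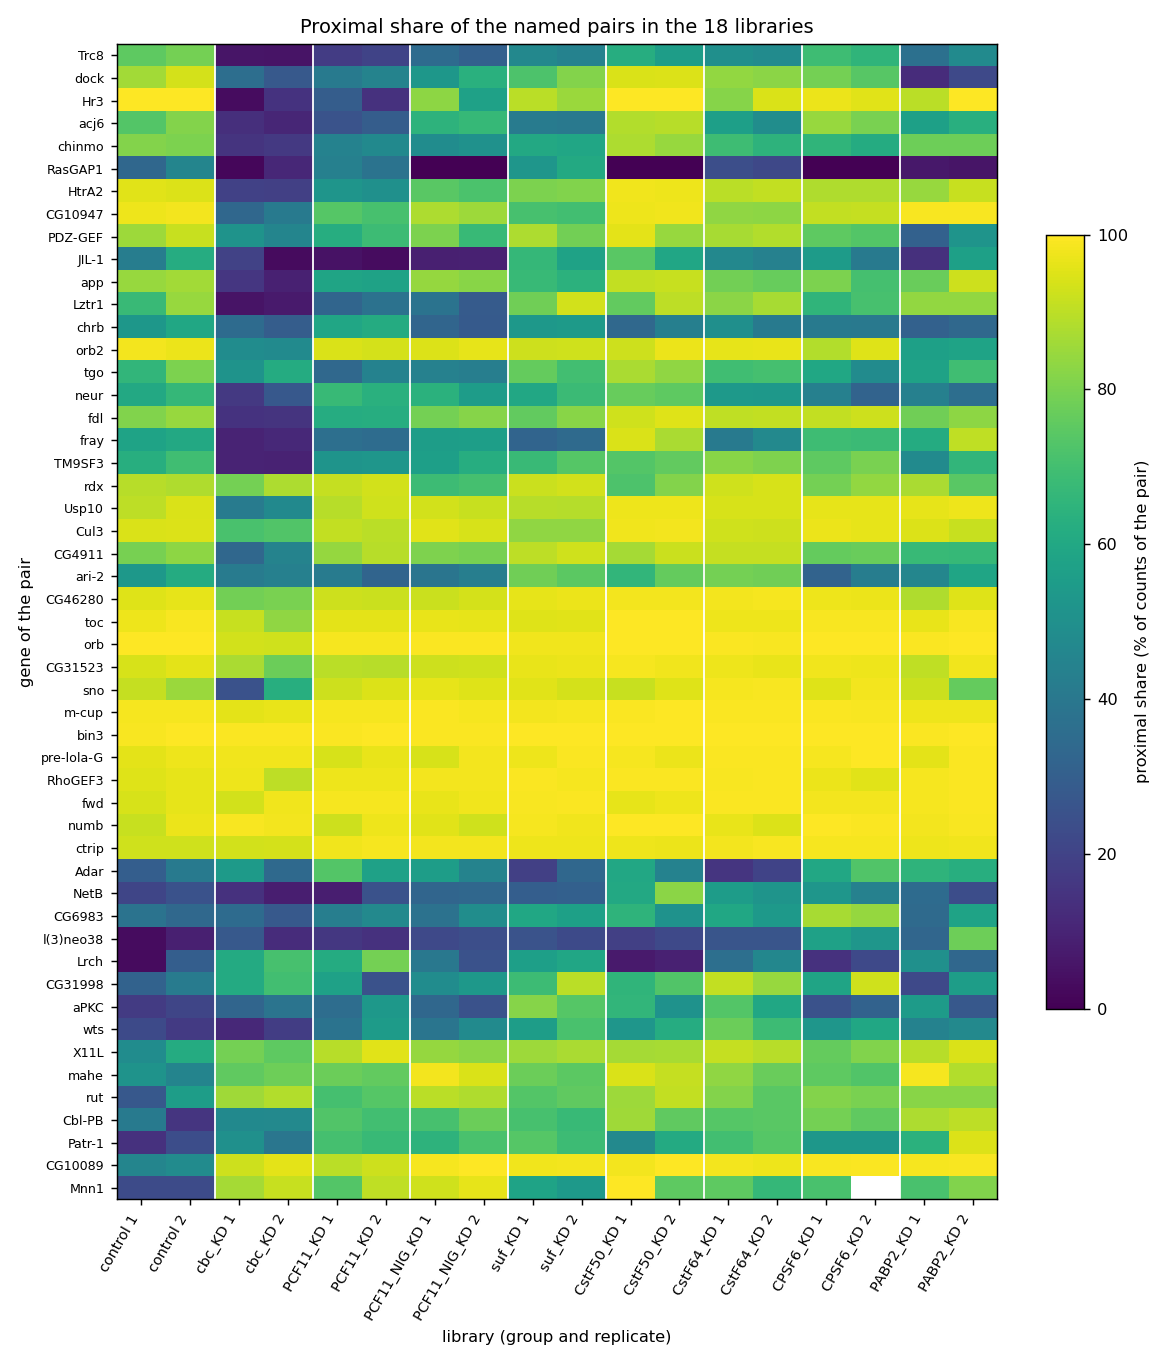
Proximal share (percent of the counts of the pair, colour) of the named pairs over 600 nt apart (rows) in the 18 libraries (columns), with the rows ordered by the mean change over the 8 knockdowns. Trc8, at the top, goes from 75.3% and 79.1% in controls to 5.75% and 5.35% in cbc_KD, and CG10089, near the foot, from 45.5% and 48.1% to at least 89.7% in every knockdown library. The white cell is Mnn1 in CPSF6_KD replicate 2, which had no counts.

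A few pairs passed in 1 direction in all 8 comparisons. How many of all genes tested did so was not counted, so no background is given. Trc8 did so toward the distal site, with group means from 5.55% ± 0.285 in cbc_KD to 67.3% ± 2.55 in CPSF6_KD against 77.2% ± 2.68 in control, and the smallest change, in CPSF6_KD, had an adjusted p of 0.032. Its sites lie at 29499499 and 29498842 on 3R, with FipoQ on the opposite strand at a site. X11L, an adaptor gene, rose in all 8 from 55.2% ± 9.01, to between 77.1% ± 2.83 in cbc_KD and 92.5% ± 4.46 in PCF11_KD. Mnn1, the menin gene, had few counts (16.3 per library) and rose from 22.7% in both controls to between 55.9% ± 2.86 in suf_KD and 94.4% ± 2.62 in PCF11_NIG_KD. CG10089, Patr-1, rut and Csk, the gene of a kinase that inhibits Src, were the other pairs called in all 8, each toward the proximal site. In Csk the share was 61.1% and 62.6% in controls and ran from 78.5% in cbc_KD replicate 1 to 94.4% in PABP2_KD replicate 1. Some of these calls rest on single libraries. In CPSF6_KD, without control replicate 2 the adjusted p of Trc8 was 0.169, and it was 0.0527 and 0.171 without CPSF6_KD replicates 1 and 2. That of X11L was 0.134 in CPSF6_KD and 0.0942 in cbc_KD without control replicate 1, and 0.0891 in CPSF6_KD without CPSF6_KD replicate 2. For Mnn1 the call in suf_KD was lost without any 1 of the 4 libraries (0.0952 to 0.164). Its calls in CstF50_KD and CstF64_KD were lost without replicate 1 of the knockdown, at 0.0983 and 0.141, and that in CPSF6_KD without either control, at 0.0616 and 0.0560, or without CPSF6_KD replicate 1, which leaves no counts. Patr-1 lost its calls in CPSF6_KD and CstF50_KD without any 1 library (0.0617 to 0.225 and 0.0578 to 0.210), and that in cbc_KD without control replicates 1 or 2 or cbc_KD replicate 1, at 0.235, 0.0604 and 0.132. Without control replicate 1 the adjusted p of rut was 0.0756 in PCF11_KD and 0.0579 in suf_KD. Because the comparisons share 2 control libraries, 8 calls of 1 pair are not 8 independent results. Control testes had bamGal4 alone, so a difference common to all knockdowns cannot be told apart from a trait of the control genotype.

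Other pairs moved in opposite directions in different knockdowns. fray was at 10.8% ± 1.16 in cbc_KD (adjusted p = 7.2e-05) and at 91.0% ± 5.0 in CstF50_KD (adjusted p = 0.0017), on both sides of 59.2% ± 1.78 in control. fdl, a hexosaminidase gene with Dh44-R2 on the opposite strand at a site, was at 15.0% ± 0.213 in cbc_KD and 62.1% ± 0.361 in PCF11_KD, and at 93.9% ± 1.48 in CstF50_KD, against 82.8% ± 2.57. HtrA2 went from 95.2% ± 0.406 to 51.1% ± 1.57 in PCF11_KD and 73.0% ± 1.77 in PCF11_NIG_KD, but to 97.7% ± 0.238 in CstF50_KD (adjusted p = 0.0077). These 3 pairs rose in CstF50_KD. acj6 was at 12% ± 2.02 in cbc_KD and at 88.9% ± 0.38 in CstF50_KD, and chinmo at 15.7% ± 1.10 and 86.1% ± 2.02, against 77.4% ± 5.79 and 81.0% ± 0.825 in control. TM9SF3 was at 9.85% ± 0.283 in cbc_KD and at 81.3% ± 1.18 in CstF64_KD (adjusted p = 0.012), against 66.0% ± 4.6. Some upward calls were lost without 1 library. In CstF50_KD the adjusted p of HtrA2 was 0.0554 without CstF50_KD replicate 1 and that of acj6 0.0633 without control replicate 1. For chinmo in CstF50_KD it was 0.0986 and 0.156 without control replicates 1 and 2 and 0.261 without CstF50_KD replicate 1. For TM9SF3 in CstF64_KD it was 0.0997 without control replicate 1 and 0.0775 without CstF64_KD replicate 1.

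The pairs with most counts had a high control share, and their moves in cbc_KD varied in size. CG31523, with the most counts (10691 per library), was at 94.9% ± 1.62 in control and at 82.5% ± 6.99 in cbc_KD (adjusted p = 0.0066). Its adjusted p was 0.0613 without control replicate 2 and 0.0638 without cbc_KD replicate 2. CG46280 went from 95.6% ± 0.964 to 79.2% ± 0.877 in cbc_KD, toc, a microtubule-associated protein gene, from 98.2% ± 0.972 to 87.4% ± 5.77, and Cul3, the cullin gene, from 94.4% ± 0.359 to 72.1% ± 1.01. orb, a CPEB-family gene of germ cells, went from 99.9% ± 0.0503 to 92.9% ± 0.0993 (adjusted p = 5.1e-08). ctrip, a ubiquitin ligase gene, did not pass in cbc_KD (93.5% ± 0.211 against 92.7% ± 0.00447, adjusted p = 0.51) and rose in the other 7 comparisons, to between 97.4% ± 0.161 in CstF50_KD and 98.7% ± 0.127 in CPSF6_KD.

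Among the pairs farthest apart, no single pattern held. Adar, the RNA editing enzyme gene with prage on the same strand at a site, had the largest distance (4067 nt) and few counts (21.2 per library), and rose from 35.7% ± 8.05 to 65.2% ± 11.4 in PCF11_KD, 66.4% ± 9.0 in CPSF6_KD and 63.8% ± 1.77 in PABP2_KD. The 3 calls of Adar were each lost without at least 2 of the libraries, with adjusted p of 0.162, 0.123 and 0.151 in CPSF6_KD, PCF11_KD and PABP2_KD without control replicate 1. They were also lost without replicate 1 of the knockdown, at 0.0511, 0.178 and 0.245, and those in CPSF6_KD and PABP2_KD without control replicate 2, at 0.0560 and 0.0521, and in CPSF6_KD without CPSF6_KD replicate 2, at 0.251. Usp10, a deubiquitinase gene with sites 3117 nt apart, fell from 92.2% ± 2.97 to 44.6% ± 3.99 in cbc_KD (adjusted p = 5.5e-08). CG4911, at 3114 nt, fell from 81.3% ± 2.62 to 39.0% ± 7.90 in cbc_KD (adjusted p = 5e-06) and rose to 91.4% ± 1.81 in suf_KD (adjusted p = 0.0068). The rise in suf_KD was lost without control replicate 1, at 0.0560, and without suf_KD replicate 2, at 0.0777. The share of NetB was 11.3% ± 4.21 in cbc_KD, which did not pass (adjusted p = 0.11), and it rose in CstF50_KD, CstF64_KD and CPSF6_KD. In CPSF6_KD the call of NetB was lost without any 1 library (0.0683 to 0.171), and in CstF64_KD without control replicate 1 or CstF64_KD replicate 1 (0.0838 and 0.0968). chrb, at 2865 nt, fell to 32.2% ± 3.74 in cbc_KD and 30.4% ± 3.07 in PCF11_NIG_KD, and was at 60.4% ± 1.51 in PCF11_KD (adjusted p = 0.44).

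Distance among these pairs went with the change only loosely. Across the 169 pairs, Spearman's rho between distance and change in share ran from 0.0848 to 0.220 over the 8 knockdowns; pairs are not independent replicates and share their libraries, so this is a description. In the 43 pairs from 1200 nt upward the median change was 11.3 points in CstF50_KD, 8.38 in CstF64_KD and 7.0 in suf_KD, against 5.25, 3.87 and 2.94 in the 42 pairs from 606 to 743 nt. The order was not steady, since the 42 pairs from 748 to 927 nt were at 6.21, 2.31 and 0.334 points and the 42 from 935 to 1196 nt at 5.78, 5.03 and 2.50 points. Spearman's rho between the control share and the change, which share the control values, ran from −0.721 to −0.341 over the 8 knockdowns (n = 169 pairs, a description). The control medians of the 4 sets, from the nearest to the farthest sites, were 80.1%, 87.4%, 87.7% and 77.4%. In cbc_KD their medians were −13.7, −20.1, −9.55 and −12.9 points. Pairs with a distal site downstream of the gene end (60) and in an annotated 3′ UTR (105 tested) had median changes of −16.3 and −11.7 points in cbc_KD and of 5.97 and 6.91 in CstF50_KD.

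The pairs nearest to 600 nt were TM9SF3 and sno at 606 nt and rdx at 613 nt just inside, and mfrn at 591, mei-218 at 595 and fzr at 599 nt just outside. Just inside, the share in cbc_KD was 9.85% ± 0.283 for TM9SF3, against 66.0% ± 4.6 in control, 44.0% ± 26.6 for sno, against 88.1% ± 4.24, and 83.4% ± 6.19 for rdx, against 88.7% ± 0.643. Just outside, mfrn was at 68.4% ± 2.57 against 87.6% ± 1.06, mei-218 at 95.8% ± 0.183 against 99.3% ± 0.365 and fzr at 31.3% ± 0.843 against 94.0% ± 0.293. Values varied widely on both sides.

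By the range of group means in points, the steadiest pairs with at least 50 counts per library stayed near full proximal use. There even a large change in odds is a small change in points. bin3, the gene of a methyltransferase that caps 7SK RNA, had group means of 99.3% and above and did not pass over the 9 groups (adjusted p = 0.072). pre-lola-G, with Pef on the opposite and lola on the same strand at a site, was between 95.3% ± 2.07 and 99.4% ± 0.0958 (adjusted p = 0.18). m-cup, a gene transcribed in spermatids, was between 96.4% ± 0.499 in cbc_KD and 99.5% ± 0.242 in CstF50_KD. numb, a cell fate gene, was between 94.0% ± 1.90 and 99.8% ± 0.349. fwd, a phosphatidylinositol 4-kinase gene that germ cells need for cytokinesis, and RhoGEF3 converge, with distal sites close together on opposite strands of 3L. They were between 95.2% ± 1.54 and 99.5% ± 0.0279 and between 93.9% ± 5.27 and 99.3% ± 0.15. Unlike bin3 and pre-lola-G, the others passed over the 9 groups, with adjusted p of 5.9e-05 (m-cup), 0.00041 (fwd), 0.00067 (numb) and 0.0028 (RhoGEF3). Calls toward the proximal site were made in 5 comparisons for fwd and in 4 each for numb and RhoGEF3. For m-cup, 2 were toward the distal and 1 toward the proximal site. In 17 combinations of a pair and a group, 1 site had no counts, such as the distal site of Suv3, with Syt14 on the opposite strand, in PABP2_KD (0 of 242, up to 1.24%) and of Antp, which has CG46458 on the same strand at a site, in CPSF6_KD (0 of 684, up to 0.439%). Such limits, like all counting limits here, cover counting error only.

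By function, the lists of related genes hold few of these pairs each. Among 11 entries of ubiquitin genes, 2 of them Cbl, 7 moved toward the distal and 0 toward the proximal site in cbc_KD (background 60.6% and 6.67%), and 1 and 8 did so in CstF50_KD (background 6.86% and 33.9%). sina, a ubiquitin ligase gene with Rh4 on the opposite strand at a site, went from 94.3% and 96.1% in controls to 75.4% and 82.6% in cbc_KD and 98.0% and 97.9% in CstF50_KD. slmb, the F-box gene of an SCF ligase, went from 90.6% and 92.4% to 76% and 76.6%, and to 97.4% and 97.6%. Their median change was −16.2 points in cbc_KD and 5.40 in CstF50_KD, beside −12.7 and 6.31 over all of these pairs. Signalling genes (16) were split in cbc_KD, with 6 calls in each direction (background 60.6% distal, 6.67% proximal) and a median change of −0.912 points. In CstF64_KD 10 of them moved toward the proximal site and 0 toward the distal one (background 21% and 17.7%), with a median of 20.8 points, beside 36.1% and 4.14% of all pairs over 600 nt apart. In suf_KD and PCF11_KD, 9 moved toward the proximal and 3 toward the distal site (background 11.6% and 26.1% in suf_KD, 9.52% and 43.8% in PCF11_KD). dco, the casein kinase gene of the clock, was at 66.6% and 65.5% in controls, at 15.8% and 41.1% in cbc_KD (adjusted p = 0.00419) and at 87.9% and 86.1% in CstF64_KD (adjusted p = 0.0363). The call of dco in CstF64_KD was lost without any 1 of the 4 libraries (0.0899 to 0.155), and that in cbc_KD without cbc_KD replicate 1 (0.0519). The receptor kinase gene Gprk2 had 26 and 19 proximal beside 1482 and 1180 distal counts in controls, and 25 and 22 beside 108 and 79 in CstF64_KD (adjusted p = 5.37e-05). In Gprk2 the distal site fell while the proximal site did not pass (adjusted p = 0.656).

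For the counts that follow, the background was 60.6% toward the distal and 6.67% toward the proximal site in cbc_KD, and 6.86% and 33.9% in CstF50_KD. The lists are short, and no test of a list was made. Chromatin and transcription genes (11) had 7 calls toward the distal and 1 toward the proximal site in cbc_KD, and 0 and 7 in CstF50_KD. CycT, a subunit of the elongation factor P-TEFb, was at 82.8% and 89.0% in controls and at 96.9% and 97.6% in CstF50_KD (adjusted p = 6.49e-05). Of 6 RNA-binding genes, 4 moved toward the distal site in cbc_KD, among them Imp, the IGF2BP homolog (lncRNA:CR45204 lies on its strand at a site), from 90.8% and 92.5% to 72.0% and 73.4% (adjusted p = 3.8e-06). Of 3 cell cycle genes, CycB, the mitotic cyclin, moved toward the distal site in cbc_KD (98.5% and 98.9% in controls, 69.1% and 58.7% after knockdown, adjusted p = 2.21e-05). All 3 trafficking genes (lqf, EndoA and Sec24AB, with CG12744 on the opposite strand) moved toward the distal site in cbc_KD and toward the proximal site in CstF50_KD. Of 6 cytoskeletal genes, 2 moved toward the distal site in cbc_KD and 5 toward the proximal site in CstF50_KD, among them the centrosome gene cnn, from 86.8% and 93.1% to 96.1% and 97.5% (adjusted p = 0.0125, but 0.207 without control replicate 1 and 0.0705 without CstF50_KD replicate 2). Both genes on the mitochondrial list, HtrA2 and clu (with caly on the opposite strand), moved toward the distal site in cbc_KD. The call of clu was lost without control replicate 1 (adjusted p = 0.143) or cbc_KD replicate 1 (0.10). The 31 tested pairs known only by a CG number had 17 calls toward the distal and 1 toward the proximal site in cbc_KD, and 0 and 17 in CstF50_KD, beside 53.3% toward distal in cbc_KD and 52.1% toward proximal in CstF50_KD over all 169 pairs.

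Cell-type markers moved with the knockdowns, and in whole testes fewer cells of a type and less RNA per cell cannot be told apart. Of the 5 markers of somatic cyst cells only zfh1 had counted sites. It was at 427 and 480 CPM in controls and between 66.3 and 265 CPM in the knockdown libraries, below both controls in all of them. Of the early germ-line markers, chinmo (1 of 5) was at 1054 and 1429 CPM in controls and at 3594 and 3236 CPM in cbc_KD. Of the 5 genes listed for the spermatocyte programme only simj had counted sites. It is also on the list of chromatin and transcription genes, so its level alone does not stand for spermatocytes. simj was at 448 and 596 CPM in controls, 1398 and 1401 CPM in CstF64_KD, 1349 and 1489 CPM in suf_KD and between 518 and 904 CPM in the other knockdown libraries. The summed level of 4 of 5 spermatid markers was 13648 and 14217 CPM in controls, 9201 and 9151 CPM in cbc_KD, 8541 and 8725 CPM in PABP2_KD and 18975 and 20551 CPM in CstF64_KD. These markers were m-cup, nes, orb2 and r-cup, and m-cup and orb2 are among the pairs described here. The proximal site of orb2 fell in PABP2_KD, as given above, and the sum does not show whether the markers moved alike. No measured marker was at 0 in any library. Whether these shifts take part in the changes of site usage was not tested.

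The authors' deposited table for each comparison gives an index that is positive for more distal use. At the authors' deposited adjusted p of at most 0.05, 105 of 157 pairs listed for cbc_KD had a positive and 25 a negative index. For CstF50_KD the authors' deposited index was positive in 4 and negative in 99 of 128 pairs. Over all genes listed, the authors' deposited index was positive in 354 and negative in 62 of 491 for cbc_KD. For CstF50_KD the authors' deposited index was positive in 61 and negative in 225 of 422 genes. For the pairs, the authors' deposited numbers were 53 positive and 53 negative of 147 for PCF11_KD and 45 and 55 of 146 for PCF11_NIG_KD. They were 27 and 65 of 144 for suf_KD and 17 and 83 of 136 for CstF64_KD. For CPSF6_KD they were 21 and 78 of 132 and for PABP2_KD 29 and 65 of 142. Over all genes listed, the authors' deposited numbers were 273 positive and 92 negative of 473 for PCF11_KD. They were 241 and 114 of 464 for PCF11_NIG_KD and 188 and 124 of 476 for suf_KD. For CstF64_KD they were 148 and 174 of 452. For CPSF6_KD they were 109 and 184 of 429 and for PABP2_KD 202 and 119 of 461.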

How the data were processed

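Per the labels' protocols, RNA from testes was made into QuantSeq forward libraries. The submitters' processing notes name Bowtie, SAMtools and the builds dm6 and BDGP6, without versions. Per the run logs, the authors counted reads with PolyA-miner, on their own list of 1098 sites and a BDGP6 genome, in 30-nt blocks at each site, without strand (setting 0) and without molecular identifiers (setting 0). The name of that list sets bam against spermatocytes. How the genes on that list were chosen is not given in the sources used here. Shares and background percents therefore hold for the listed genes, and whether they hold for other genes of the testis was not tested. Counts, as deposited, are raw and cover 1082 sites. The authors' deposited result tables hold a score per gene (PolyAIndex) and adjusted p-values of a beta-binomial test.

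The 8 tables had the same sites and control columns and were joined. Usage was tested in edgeR 4.0.16 (R 4.3.3) on both sites of each library, with a coefficient per library, over all genes with at least 10 counts per library. An entry with 3 sites entered with the 2 that had most counts. The printed log2 odds are edgeR's moderated values, and the SE comes from the unmoderated coefficient and its F value. Single sites with at least 5 counts per library were tested with TMM factors. A pair passed at an adjusted p under 0.05. For a site without counts, the limit on its share is 3 counts over those of the pair in that group. Scripts were tested on simulated data.

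Sites were matched to the Ensembl annotation of BDGP6 (165 pairs by symbol, 5 by an older name), and no sequence was used. The pairs and gene lists were chosen with earlier results of these data known. Named pairs were, per comparison and direction, the 4 with the largest change of mean share among those past the threshold with at least 20 counts per library and no overlap of the groups. To these came 6 each for most comparisons in 1 direction, opposite directions, most counts, distance and steadiness, 3 on each side of the distance threshold, and the most abundant members of each gene list. Alternatives were DESeq2 1.42.0, other filters, scalings, distances and left-out libraries.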

Additional observations from a re-analysis of the deposited data

How the results depend on the processing

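Replicate numbers showed no pairing common to all groups. Over 36 pairs of groups, deviations of same-numbered libraries correlated from −0.385 to 0.307 (median 0.0351), with 10 pairs above 0.1. Whether libraries of some groups share a batch was not tested. With the replicate number as a block, 51.5% of the pairs moved toward the proximal site in CstF50_KD and 92.9% differed over the 9 groups, and no share of calls moved by more than 1.5 times; nor did any with DESeq2.

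Values without 1 library are given as the lowest and highest. Toward the distal site the percent of pairs was 2.96 to 5.92 in CPSF6_KD, 0.592 to 2.96 in CstF50_KD, 8.28 to 15.4 in PCF11_NIG_KD, 18.9 to 27.8 in PCF11_KD and 7.10 to 9.47 in suf_KD. Toward the proximal site it was 17.8 to 26.6 in CPSF6_KD, 30.2 to 42.6 in CstF50_KD, 18.9 to 31.4 in CstF64_KD, 24.9 to 39.1 in PABP2_KD, 11.8 to 16 in PCF11_KD and 13.6 to 18.9 in suf_KD. Proximal sites higher were 20 to 25.3% in CPSF6_KD, 21.2 to 38.8% in CstF50_KD, 18.2 to 22.9% in CstF64_KD and 8.24 to 10% in PCF11_NIG_KD. Proximal sites lower were 4.12 to 5.88% in CPSF6_KD, 7.06 to 10.6% in CstF64_KD and 12.9 to 14.1% in suf_KD. Distal sites higher were 5.06 to 7.59% in CPSF6_KD, 0.633 to 1.27% in CstF50_KD, 9.49 to 15.2% in PCF11_NIG_KD and 12 to 15.2% in suf_KD. Distal sites lower were 7.59 to 13.3% in cbc_KD, 13.9 to 20.3% in CPSF6_KD, 20.3 to 37.3% in CstF50_KD, 23.4 to 33.5% in CstF64_KD and 20.3 to 30.4% in suf_KD. Median changes were −15.6 to −11.6 points in cbc_KD, 2.42 to 5.39 in CPSF6_KD, 3.12 to 5.39 in CstF64_KD, −0.911 to 0.867 in PCF11_NIG_KD, −1.17 to 1.70 in PCF11_KD and 0.833 to 3.39 in suf_KD. CG31523 in PABP2_KD, which did not pass (adjusted p = 0.929), ranged from −1.04 to 1.24 in log2 odds, and at −1.04, without PABP2_KD replicate 2, it passed with the sign turned (adjusted p = 0.0317).

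With only the 4 libraries of a comparison, calls toward the distal site were 4.76% in CPSF6_KD, 7.65% in CstF64_KD and 7.10% in PABP2_KD, and toward the proximal site 18.3% in PABP2_KD. With library totals alone, distal sites lower were 7.59% in cbc_KD, proximal sites lower 13.5% in CPSF6_KD, proximal sites higher 24.7% in CstF50_KD and distal sites higher 0.633% there, or 1.18% with no filter. The PCF11_KD median was 1.24 points over pairs with no other gene at a site and 1.66 over 800 nt. For these the cause was not tested. Over all settings, 61 shares of calls or medians moved by over 1.5 times (shares) or by 1 SD between pairs of libraries (medians), and 499 by less. A median near 0 can change sign within that SD, as in PCF11_KD (0.469 points without PCF11_KD replicate 1). Limits are the 2 libraries per group, the shared controls, sequencing runs that are not stated and unstranded counting.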
